A study of Mus musculus with 8 samples.

Results

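The genes described are 9 CXC chemokines measured in mouse corneas: Cxcl1, Cxcl2, Cxcl3, Cxcl5, Ppbp and Pf4, which stand close together on chromosome 5, and Cxcl12, Cxcl14 and Cxcl16, which lie on other chromosomes. They were taken by gene name from a table of 13437 protein-coding genes, and all 9 were listed in it. The choice rested on their measured difference between BAC and PBS corneas, so their own values are given as a description, with no p. The study models dry eye in female C57BL/6 mice that were 6 to 8 weeks old. Mice of the model had 5 µl of 0.2% BAC placed on each eye 2 times a day over 7 days, while controls had PBS on each eye. Of the 8 samples 4 were BAC corneas and 4 were PBS corneas, all taken at day 7. The labels give BAC only by its abbreviation and do not give the number of corneas or mice behind a sample, so every adjusted p measures the spread between these samples, which may be technical.

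CXC chemokines are small secreted proteins that guide leukocytes along gradients held on heparan sulfate. Those with a glutamate-leucine-arginine motif before the paired cysteines, among them the products of Cxcl1, Cxcl2, Cxcl3, Cxcl5 and the processed product of Ppbp, draw neutrophils through the receptor Cxcr2, and epithelial and stromal cells make several of them after interleukin 1 or interleukin 17 signals. Ppbp (pro-platelet basic protein) and Pf4 (platelet factor 4) are best known as chemokines stored in platelet granules, whereas Cxcl12, Cxcl14 and Cxcl16 are made in many tissues without inflammation.

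Expression is given as FPKM, the fragments of a gene scaled to its length and to the fragments sequenced, as the authors deposited it. Read depth is unknown, and summed FPKM over all genes ran from 268629 to 277808 in BAC libraries and from 273777 to 283538 in PBS libraries. A log2 change is the difference, BAC minus PBS, between group means of log2(FPKM + 1), and for genes of low FPKM it is smaller than the change itself. A fold is the ratio of group mean FPKM. The median log2 change of all 12967 genes tested was 0.19, and this shift is included in the changes printed. Higher genes made up 66.6% of all calls on the deposited values, 51.4% under median-of-ratios scaling and 44.3% under quantile normalization. Across genes, Pearson's r was 0.976 to 0.986 between libraries of the same group and 0.769 to 0.824 between libraries of different groups.

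All 9 chemokine genes were higher in BAC corneas, and none had overlapping groups. The size of the difference ran from 3.48-fold for Cxcl14 to 148-fold for Cxcl5 among the genes with FPKM above 0 in every library, and it was greatest for Ppbp. All 9 passed the threshold of limma across all genes, an adjusted p of 0.05, where 45.1% of the genes tested were higher and 22.6% were lower. Every BAC value stood above every PBS value for 42.6% of all genes tested. The 9 genes were chosen on this contrast, so this count is no test of them and nothing is read from it. The filter on low values, a mean of at least 0.5 FPKM over the 8 samples, kept all 9, but Cxcl3 passed it only through its BAC values. Relative to the median of all genes the changes ran from 1.24 for Cxcl14 to 9.31 for Ppbp, and all 9 kept their direction under the other scalings. The log2 changes of the 6 genes of chromosome 5 averaged 5.39 and those of the other 3 averaged 2.12, against the median of 0.19 over all genes.

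**Figure D1:**
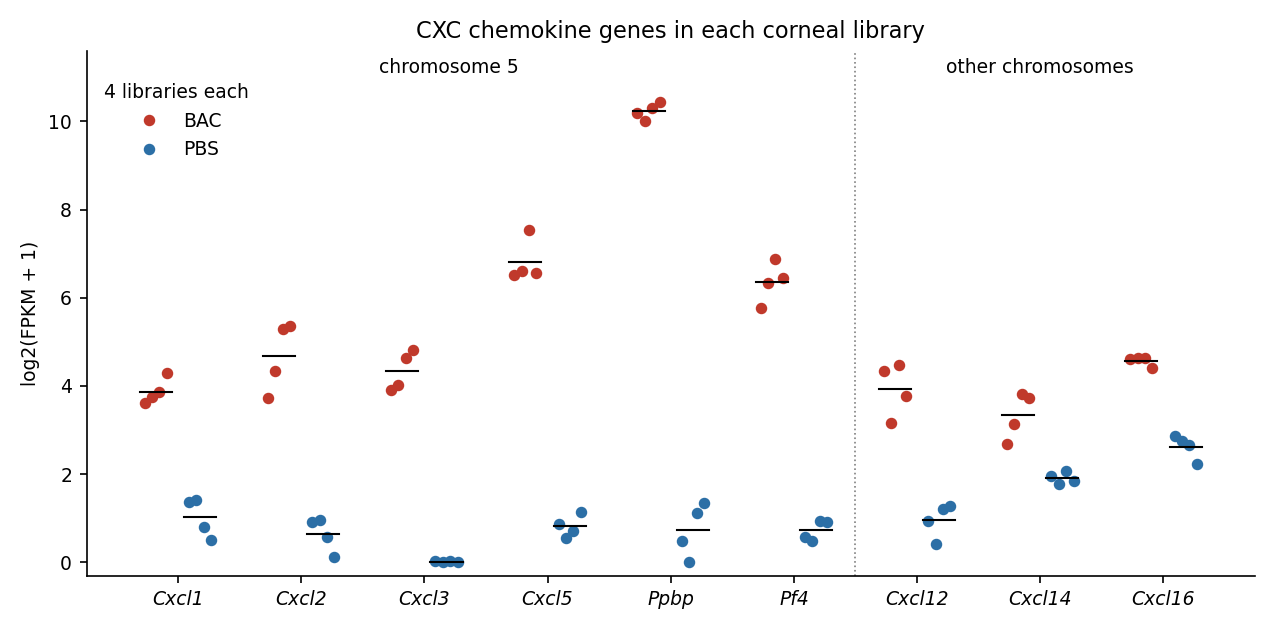
Each point is 1 corneal library, on the vertical axis log2(FPKM + 1), with BAC (red) left of PBS (blue) for each of the 9 genes and a line at the group mean. Ppbp stands highest in BAC corneas, with 1029 to 1390 FPKM, and the 2 groups are apart for every gene.

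Ppbp, whose product is cut to a neutrophil-attracting chemokine by neutrophil and mast cell proteases, showed the greatest rise of all 12967 genes. It had 1168, 1029, 1264 and 1390 FPKM in BAC corneas 1 to 4, against 0.390, 0, 1.18 and 1.55 FPKM in PBS corneas 1 to 4. Every BAC library held over 1000 FPKM and no PBS library reached 2 FPKM. The log2 change of Ppbp was 9.50 (SE 0.27). By mean FPKM Ppbp was in place 17 among all 13437 genes listed in BAC corneas and in place 11330 in PBS corneas. Its coefficient of variation between BAC libraries was 12.6%, close to the median of 10.98% over all genes and lower than that of each other chemokine gene but Cxcl16. Ppbp (ENSMUSG00000029372.7) spans chr5:90768518-90770063 on the plus strand in GRCm38, and its gene FPKM rests on a single listed transcript of 1083 bases.

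Pf4, the other platelet granule chemokine, lies beside Ppbp at chr5:90772435-90773383 (ENSMUSG00000029373.7). It had 53.1, 80.2, 118 and 86.3 FPKM in BAC corneas 1 to 4, against 0.491, 0.400, 0.914 and 0.899 FPKM in PBS corneas 1 to 4. The BAC libraries were spread more widely than for Ppbp, with BAC 3 highest and BAC 1 lowest, and the PBS libraries all stayed under 1 FPKM. The means were 84.3 ± 26.5 FPKM in BAC and 0.676 ± 0.269 FPKM in PBS corneas (SD, n = 4 each), 125-fold apart, with a log2 change of 5.63 (SE 0.22). FPKM of Ppbp exceeded that of Pf4 by 10.7 to 22.0 times in BAC libraries, while in PBS libraries the ratio lay between 0 and 1.73.

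Other genes of platelets were divided in direction. Of 14 platelet and megakaryocyte markers 5 were listed, and of the 4 tested 2 were higher and 2 lower in BAC corneas. Over all genes tested 45.1% were higher and 22.6% lower. Of these 4 markers 2 had a PBS mean and 1 a BAC mean under 0.5 FPKM and were kept through the other group, so nothing is read from that count. The remaining listed marker, Nfe2, a transcription factor of megakaryocytes, was under the filter, with 0.245 to 0.95 FPKM in BAC and 0 to 0.0336 FPKM in PBS corneas and no overlap. Itga2b, the platelet integrin chain, had 0.581 to 0.803 FPKM in BAC corneas and 1.34 to 1.59 FPKM in PBS corneas (log2 change -0.52, limma adjusted p = 0.000312). Gp1bb, a chain of the von Willebrand factor receptor, had 0.219 to 0.723 FPKM in BAC and 2.49 to 3.20 FPKM in PBS corneas (log2 change -1.41, limma adjusted p = 8.44e-06). The higher pair, Itgb3 and P2ry12, reached at most 6.40 and 3.46 FPKM in any BAC library. Summed over the 5 listed markers, FPKM was 7.46 to 11.8 in BAC and 4.13 to 4.80 in PBS libraries, and the markers Gp1ba, Gp9 and Gp6 were not among those listed.

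Cxcl5, an epithelial chemokine for neutrophils, was the next highest of the 9 genes in BAC corneas. It had 90.9, 96.6, 183 and 93.8 FPKM in BAC corneas 1 to 4, against 0.826, 0.457, 0.651 and 1.20 FPKM in PBS corneas 1 to 4. BAC 3 stood far above the other 3 BAC libraries, which lay within 6 FPKM of each other, and even the lowest of them was far above every PBS library. Mean FPKM of Cxcl5 was 116 ± 44.9 in BAC and 0.784 ± 0.317 in PBS corneas (SD, n = 4 each), 148-fold apart, and the log2 change was 5.99 (SE 0.23). Cxcl5 (ENSMUSG00000029371.7) spans chr5:90759360-90761624 on the plus strand.

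Cxcl1, Cxcl2 and Cxcl3 encode closely related neutrophil chemokines whose transcription is known to respond to NF-kB. Their start regions are shown because the same 9 letters, a match to the NF-kB type motif GGANNTTCC, stand in each of them just upstream of the gene start. The sequences are RefSeq promoter sequences of GRCm38.p6 on the plus strand, in the order chr5:90891155-90891234, chr5:90903783-90903862 and chr5:90786009-90786088, with the match to GGANNTTCC and any TATAAA in capitals.
Cxcl1: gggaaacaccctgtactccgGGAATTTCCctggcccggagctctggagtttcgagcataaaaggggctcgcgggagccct
Cxcl2: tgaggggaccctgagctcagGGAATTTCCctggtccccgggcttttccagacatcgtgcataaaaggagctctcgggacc
Cxcl3: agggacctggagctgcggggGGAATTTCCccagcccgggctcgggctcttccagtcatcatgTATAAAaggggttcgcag
The match begins 66 bases before the gene start given in the files for Cxcl1, 68 bases before it for Cxcl2 and 74 bases before it for Cxcl3. Aligned from 20 bases before the match, with no gaps, the 80-base windows shared 42.5% of bases between Cxcl1 and Cxcl2, 43.75% between Cxcl1 and Cxcl3 and 36.25% between Cxcl2 and Cxcl3. These shares include the 9 letters of the match, which are the same by construction, and no background share was computed. Searched on both strands over 300 bases, 250 before the RefSeq start and 50 after it, GGANNTTCC was found in 1399 of 32851 promoters (4.26%). Promoters of 7 of the 9 genes were matched by symbol, all but those of Cxcl5 and Cxcl16, and the motif was found in those of Cxcl1, Cxcl2 and Cxcl3 and not in the windows of Ppbp, Pf4, Cxcl12 and Cxcl14. The window of Ppbp, chr5:90768438-90768517 on the plus strand, is shown for comparison because the gene with the greatest rise has no such match there and holds TATAAA, in capitals, at 2 places, of which 1 lies 30 to 25 bases before the RefSeq start.
Ppbp: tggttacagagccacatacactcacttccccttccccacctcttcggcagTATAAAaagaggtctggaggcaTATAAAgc
TATAAA was found in 13.6% of all promoters, and a match of letters shows neither binding nor use of a site. Of the other motifs searched on both strands, GGGNTTTCC (1.68% of all promoters) and TGACTCA (5.20%) were found in none of the 7 windows, and TTGCNNAA (10.8%) was found only in that of Pf4.

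Cxcl1 rose least of the 6 genes of chromosome 5. It had 11.2, 12.4, 13.5 and 18.7 FPKM in BAC corneas 1 to 4, against 1.59, 1.68, 0.734 and 0.419 FPKM in PBS corneas 1 to 4. BAC 4 was highest among the BAC libraries and PBS 4 lowest among the PBS libraries, with a wide gap between the groups. Mean FPKM of Cxcl1 was 13.9 ± 3.33 in BAC and 1.11 ± 0.626 in PBS corneas (SD, n = 4 each), 12.6-fold apart, with a log2 change of 2.85 (SE 0.23). Cxcl1 is ENSMUSG00000029380.11, at chr5:90891241-90893115.

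Cxcl2 (ENSMUSG00000058427.10, chr5:90903871-90905938), a chemokine also made in quantity by macrophages and neutrophils, varied most between BAC libraries. It had 12.2, 19.3, 38.4 and 40.1 FPKM in BAC corneas 1 to 4, against 0.892, 0.945, 0.484 and 0.0918 FPKM in PBS corneas 1 to 4. BAC 3 and BAC 4 were each about the sum of BAC 1 and BAC 2 or above it, and no PBS library reached 1 FPKM. Means of Cxcl2 were 27.5 ± 13.9 FPKM in BAC and 0.603 ± 0.398 FPKM in PBS corneas (SD, n = 4 each), 45.6-fold apart, and the log2 change was 4.04 (SE 0.36). The coefficient of variation of Cxcl2 in BAC corneas was 50.5%, the widest of the 9 genes.

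Cxcl3 (ENSMUSG00000029379.10, chr5:90786103-90789600) was the gene most nearly absent from PBS corneas. It had 14.0, 15.2, 23.7 and 27.2 FPKM in BAC corneas 1 to 4, against 0.0277, 0, 0.0279 and 0 FPKM in PBS corneas 1 to 4. The PBS libraries were listed at 0 or close to it, so no fold is given, and the log2 change of 4.32 (SE 0.19) depends on the constant added before the logarithm. As for Cxcl1 and Cxcl2, BAC 4 was highest and BAC 1 lowest.

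The gene value of Cxcl3 also stood well below that of its coding transcript. In the deposited tables a gene's FPKM equals the FPKM of its transcripts weighted by length and divided by the merged exon length, so a gene with long additional annotated transcripts has a lower gene value. The coding transcript of Cxcl3, 1016 bases long against 3498 bases of merged exons, averaged 63.1 ± 19.1 FPKM in BAC corneas (SD, n = 4), and the gene value was 31.8% of it. On listed coding transcripts Cxcl3 stood at 63.1 FPKM, above Cxcl2 at 40.8 ± 19.3 FPKM and Cxcl1 at 20.9 ± 4.85 FPKM in BAC corneas, whereas by gene FPKM Cxcl2 had the higher mean. By coding transcripts the log2 change was 5.93 for Cxcl3, 4.45 for Cxcl2, 3.11 for Cxcl1, 6.29 for Cxcl5 and 5.88 for Pf4.

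The 6 genes lie within a stretch of 146579 bases of chromosome 5. The genes around them changed less, but the 6 were chosen on this contrast and their neighbours were not, so nothing is read from that difference. In the files 8 other genes lie within 500 kb of this stretch, of which 3 were higher, 2 lower and 3 did not pass the limma test. Over all genes tested 45.1% were higher and 22.6% lower. The median log2 change of these neighbours was 0.13 against 0.19 over all genes. Areg, which encodes amphiregulin, an epidermal growth factor receptor ligand, was at 15.8 ± 2.81 FPKM in BAC and 5.97 ± 1.29 FPKM in PBS corneas (log2 change 1.27, SE 0.15, limma adjusted p = 5.47e-05). Its neighbour Btc, which encodes betacellulin, a ligand of the same receptor, was at 2.00 ± 0.198 FPKM in BAC and 5.57 ± 0.426 FPKM in PBS corneas (log2 change -1.13, SE 0.08, limma adjusted p = 1.69e-06). Another ligand gene, Epgn (epigen), was at 14.4 ± 1.72 FPKM in BAC and 8.40 ± 0.734 FPKM in PBS corneas (log2 change 0.71, SE 0.09, limma adjusted p = 0.00012), and Ereg (epiregulin) was not called (log2 change -0.36, limma adjusted p = 0.0744). Rassf6, a Ras association domain gene on the other side of the cluster, was at 2.82 ± 0.228 FPKM in BAC and 3.61 ± 0.362 FPKM in PBS corneas (log2 change -0.27, limma adjusted p = 0.0161). The called rise of Ankrd17 was small (log2 change 0.19, limma adjusted p = 0.0356), its call was lost under 8 alternatives, and its direction turned under quantile normalization, as did that of Mthfd2l.

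**Figure D2:**
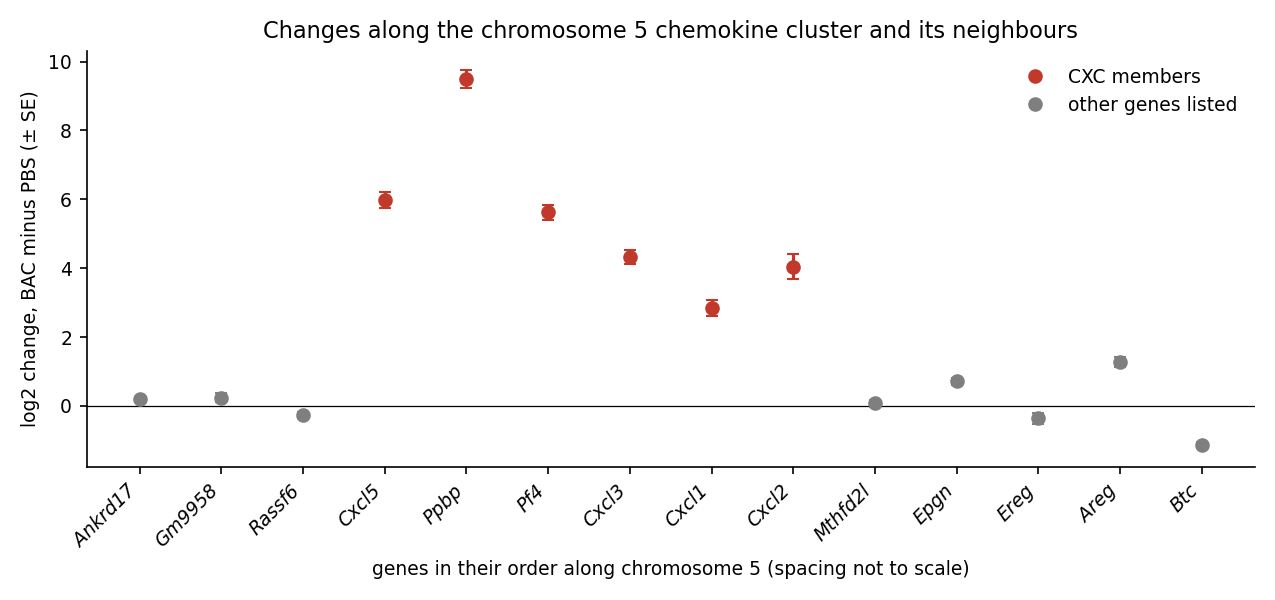
Log2 change, BAC minus PBS, with its standard error, for the 6 chemokine genes (red) and the 8 other listed genes within 500 kb (grey), in their order along chromosome 5 with spacing not to scale. The chemokine genes lie between 2.85 and 9.50, and the other genes between -1.13 and 1.27. The chemokine genes were chosen on this contrast, so nothing is read from the gap.

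Cxcl12, the ligand of Cxcr4 that holds leukocytes and progenitors in tissues and marrow, was also higher in BAC corneas. It had 19.2, 8.01, 21.4 and 12.6 FPKM in BAC corneas 1 to 4, against 0.909, 0.337, 1.33 and 1.44 FPKM in PBS corneas 1 to 4. Library 2 was lowest in each group, and the lowest BAC library was still well above every PBS library. Means of Cxcl12 were 15.3 ± 6.13 FPKM in BAC and 1.00 ± 0.501 FPKM in PBS corneas (SD, n = 4 each), 15.2-fold apart, with a log2 change of 2.98 (SE 0.30), which is above that of Cxcl1 in the chromosome 5 group. Cxcl12 (ENSMUSG00000061353.11) spans chr6:117168535-117181367 on the plus strand.

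The transcripts of Cxcl12 were not divided alike between libraries. The transcript of 1878 bases (ENSMUST00000112866.7) had 51.0, 0.0978, 0.0584 and 0.154 FPKM in BAC corneas 1 to 4, against 0.124, 0, 0 and 2.71 FPKM in PBS corneas 1 to 4. It made up 79.6% of transcript FPKM in BAC 1 and 0.147% to 0.798% in the other BAC libraries. The transcript of 5627 bases (ENSMUST00000073043.4) had 6.98, 6.93, 12.9 and 8.23 FPKM in BAC corneas 1 to 4, against 0.0694, 0.164, 1.21 and 0.627 FPKM in PBS corneas 1 to 4. For this longer transcript the groups were apart and BAC 1 was not high. The transcript of 3132 bases (ENSMUST00000112871.7) had 6.05, 5.23, 26.8 and 14.3 FPKM in BAC corneas 1 to 4, against 1.05, 0.568, 0 and 0.900 FPKM in PBS corneas 1 to 4. It made up 9.45%, 42.7%, 67.3% and 63.0% of transcript FPKM in BAC corneas 1 to 4. In BAC 1 the transcript of 1878 bases supplied 61.1% of the Cxcl12 gene FPKM, so that library's gene value rests mostly on a transcript nearly absent from the other BAC libraries.

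Cxcl14, a chemokine of resting epithelia, rose least of the 9 genes. It had 5.42, 7.85, 13.1 and 12.3 FPKM in BAC corneas 1 to 4, against 2.86, 2.43, 3.20 and 2.60 FPKM in PBS corneas 1 to 4. BAC 3 and BAC 4 were highest, and the lowest BAC library, BAC 1, still exceeded the highest PBS library. Means of Cxcl14 were 9.66 ± 3.65 FPKM in BAC and 2.77 ± 0.332 FPKM in PBS corneas (SD, n = 4 each), 3.48-fold apart, with a log2 change of 1.43 (SE 0.23). Relative to the median of all genes the change was 1.24. Cxcl14 (ENSMUSG00000021508.11) spans chr13:56288643-56296551 on the minus strand.

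For Cxcl14, too, the transcripts differed in 1 library. The transcript of 1467 bases had 0, 0.171, 0.492 and 12.6 FPKM in BAC corneas 1 to 4 and was listed at 0 in every PBS cornea. The transcript of 1827 bases (ENSMUST00000021970.10) had 5.42, 7.71, 12.7 and 2.13 FPKM in BAC corneas 1 to 4, against 2.86, 2.43, 3.20 and 2.60 FPKM in PBS corneas 1 to 4. By the transcript of 1827 bases BAC 4 lay below every PBS library, while that of 1467 bases held 85.6% of the transcript FPKM of BAC 4. Summed over both transcripts, BAC 4 was the highest library.

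**Figure D3:**
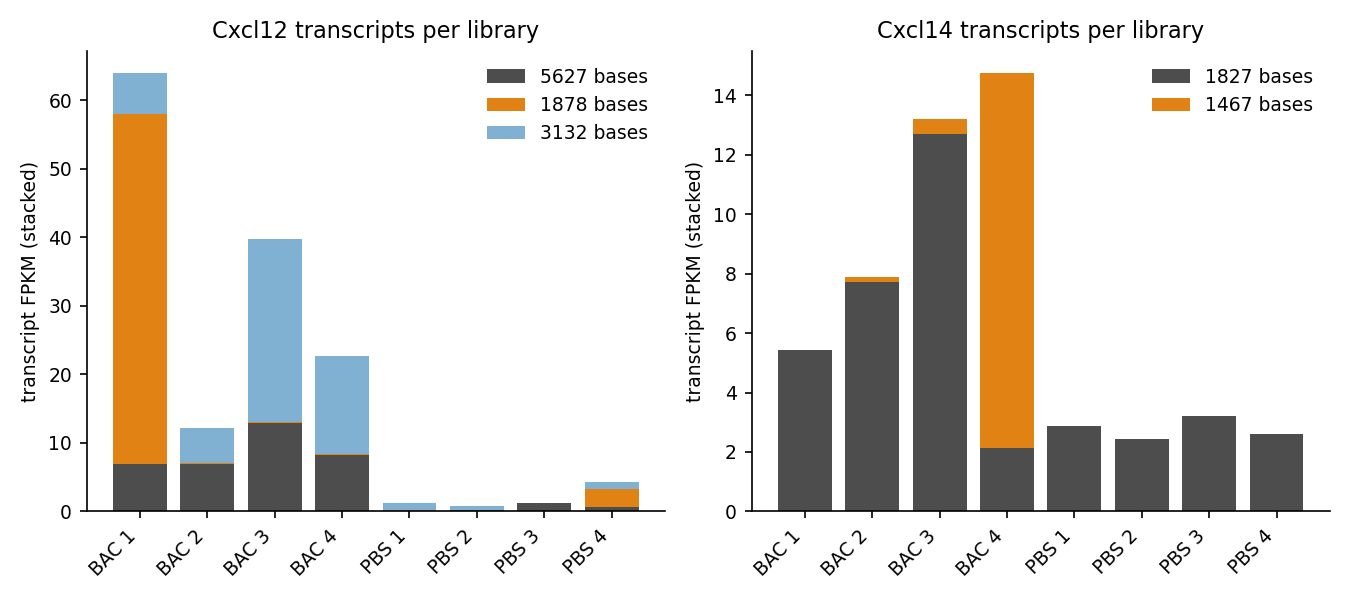
Stacked bars give the FPKM of each listed transcript of Cxcl12 (left panel) and Cxcl14 (right panel) in every library, BAC libraries left of PBS libraries. The Cxcl12 transcript of 1878 bases is large in BAC 1, at 51.0 FPKM, and the Cxcl14 transcript of 1467 bases in BAC 4, at 12.6 FPKM, and both are small in the other BAC libraries.

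Cxcl16, a membrane-bound chemokine that is shed by Adam10 and read by Cxcr6, varied least of the 9 genes between BAC libraries. It had 23.6, 23.9, 23.9 and 20.2 FPKM in BAC corneas 1 to 4, against 6.28, 5.69, 5.35 and 3.68 FPKM in PBS corneas 1 to 4. Library 4 was lowest in each group, and the groups were far apart. Means of Cxcl16 were 22.9 ± 1.80 FPKM in BAC and 5.25 ± 1.11 FPKM in PBS corneas (SD, n = 4 each), 4.36-fold apart, with a log2 change of 1.95 (SE 0.13). Its coefficient of variation in BAC corneas, 7.85%, was the lowest of the 9. Cxcl16 (ENSMUSG00000018920.11) spans chr11:70453983-70459984 on the minus strand.

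The order of the levels differed between the groups. In BAC corneas Ppbp stood apart at the top, Cxcl5 and Pf4 came next with overlapping ranges, and Cxcl2, Cxcl16, Cxcl3, Cxcl12, Cxcl1 and Cxcl14 followed, each overlapping its neighbour in that order. In PBS corneas Cxcl16 was highest and Cxcl14 next, each apart from its neighbours, then came Cxcl1, Cxcl12, Cxcl5, Ppbp, Pf4 and Cxcl2 with ranges that overlapped between neighbours, and Cxcl3 was apart at the bottom. The genes of chromosome 5 supplied 96.8% ± 0.378 of the summed FPKM of the 9 genes in BAC corneas and 30.6% ± 2.95 in PBS corneas (SD, n = 4 each). Ppbp alone supplied 79.8% ± 3.96 in BAC corneas and between 0% and 13.1% in PBS corneas. The 9 genes together held 1292 to 1701 FPKM in BAC libraries, which was 0.556% ± 0.0715 of all FPKM, and 11.9 to 14.3 FPKM in PBS libraries, 0.00468% ± 0.00041 of all FPKM (SD, n = 4 each). Within libraries, the mean log2(FPKM + 1) of the chromosome 5 genes exceeded that of the other 3 by 1.74 to 2.35 in BAC corneas and lay below it by 1.08 to 1.29 in PBS corneas.

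Among the BAC libraries the chemokine genes were mostly high in the same libraries. The highest BAC value was in BAC 3 for 5 genes and in BAC 4 for 4 genes, and the lowest was in BAC 1 for 6 genes, of which 5 were on chromosome 5. The listed neutrophil markers were highest in BAC 3 and next in BAC 4. Among them S100a8 had 119, 114, 417 and 183 FPKM in BAC corneas 1 to 4. Of the chemokine genes only Pf4 and Cxcl14 had BAC 3 highest and BAC 4 next. Cxcl1, Cxcl2, Cxcl3 and Ppbp were highest in BAC 4, and Cxcl16 was lowest there. The part of neutrophil content in the spread of the chemokine values was not tested.

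Genes whose values over the 8 libraries came nearest to those of a chemokine gene were found by the root mean square of log2(FPKM + 1) differences, after each gene was centred on its own mean. Nearest to Cxcl5 was Il1b, the interleukin 1 beta gene, at 0.23, and then Timp1, which encodes a metalloproteinase inhibitor, at 0.23 and Srgn, which encodes the granule proteoglycan serglycin, at 0.29. For Ppbp no gene came close, the nearest being S100a8, an alarmin of neutrophils, at 1.29. Cxcl16 had near neighbours, with Filip1l and Pofut2 at 0.08 and the mucin gene Muc1 at 0.10. For Cxcl12 the nearest were Ly6d at 0.26 and Actg2, which encodes a smooth muscle actin, at 0.28, and for Cxcl14 Aldh1l2 at 0.18. The measure is set mainly by the size of the group difference and by low scatter, and it says nothing of shared control.

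Of the receptors for these ligands, Cxcr2, Cxcr4 and Cxcr6 were nearly absent from PBS corneas and present in BAC corneas, while Ackr3 had 6.30 to 8.85 FPKM in BAC and 6.51 to 6.78 FPKM in PBS corneas. Of 18 other CXC ligand and receptor genes 10 were listed and 8 were tested, of which 7 rose and none fell in limma, with a median log2 change of 1.73 against 0.19 over all genes. Of those 8, 7 had a PBS mean under 0.5 FPKM and were kept through their BAC values, so nothing is read from that count. Cxcr2 is the neutrophil receptor for the ligands of chromosome 5 other than Pf4. It had 14.8, 17.0, 39.8 and 23.6 FPKM in BAC corneas 1 to 4. In PBS corneas 1 to 3 it was listed at 0, with 0.127 FPKM in PBS 4 (log2 change 4.49, SE 0.26, limma adjusted p = 5.09e-07). BAC 3 was highest for Cxcr2 as it was for Cxcl5 and Pf4.

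Among receptors of the other ligands, Cxcr4 and Cxcr6 were higher and Ackr3 was not called. Cxcr4, the receptor of Cxcl12, had 21.4, 19.3, 24.2 and 17.9 FPKM in BAC corneas 1 to 4, against 0.257, 0.0841, 0.135 and 0.328 FPKM in PBS corneas 1 to 4 (log2 change 4.17, SE 0.11, limma adjusted p = 9.22e-09). Ackr3, the scavenging receptor of Cxcl12, was at 7.04 ± 1.22 FPKM in BAC and 6.69 ± 0.122 FPKM in PBS corneas (SD, n = 4 each) and was not called (log2 change 0.05, limma adjusted p = 0.656). The signalling receptor and the scavenger thus differed in their values, with overlapping groups only for Ackr3. Cxcr6, the receptor of Cxcl16, had 1.66 to 2.26 FPKM in BAC and 0 to 0.242 FPKM in PBS corneas (log2 change 1.49, SE 0.10, limma adjusted p = 1.58e-06). Ackr1, a chemokine receptor of venules and red cells that does not signal, had 0.818 to 5.92 FPKM in BAC and 0 to 0.174 FPKM in PBS corneas (log2 change 1.97, limma adjusted p = 0.00104).

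Among the other ligands, Cxcl17, a mucosal chemokine, had 28.6, 27.0, 39.1 and 16.9 FPKM in BAC corneas 1 to 4, against 0.256, 0, 0.0331 and 0 FPKM in PBS corneas 1 to 4 (log2 change 4.70, SE 0.21, limma adjusted p = 1.36e-07). Its BAC level was of the order of that of Cxcl2. The interferon-induced ligand Cxcl10 was low, at 0.233 to 3.98 FPKM in BAC and 0.0435 to 0.461 FPKM in PBS corneas, and the groups overlapped. Its call (log2 change 1.12, limma adjusted p = 0.0202) was lost under quantile normalization (log2 change 0.63, adjusted p = 0.139), without BAC 1 (adjusted p = 0.0503) and without PBS 1 (adjusted p = 0.0505). Cxcl9, likewise interferon-induced, had 0.178 to 1.44 FPKM in BAC corneas, was listed at 0 in PBS corneas and fell under the filter.

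**Figure D4:**
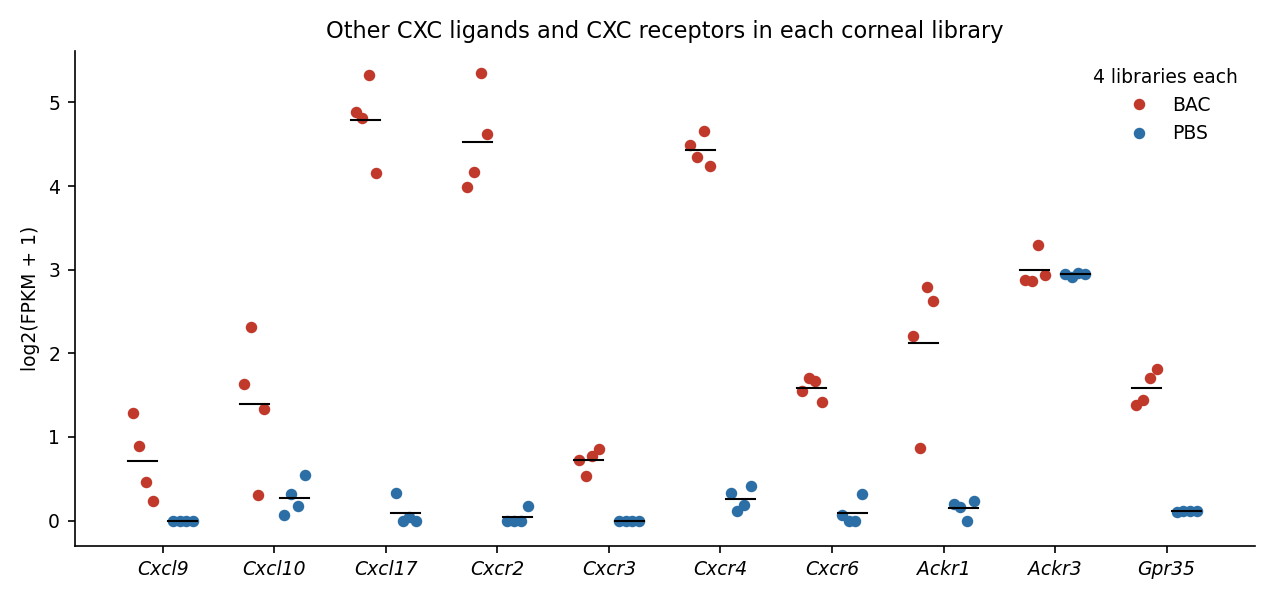
Each point is 1 library, on the vertical axis log2(FPKM + 1), for the 10 listed genes of the other CXC ligands and receptors, with BAC (red) left of PBS (blue) and a line at the group mean. Cxcl17, Cxcr2 and Cxcr4 stand highest in BAC corneas while their PBS values lie at or under 0.328 FPKM, and Ackr3 overlaps between the groups.

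Genes known to act upstream of the chemokines, in interleukin 1 signalling and NF-kB, moved in both directions. Of 36 inducer and NF-kB genes 31 were listed and 29 tested, of which 17 rose, 3 fell and 9 were not called in limma, where 45.1% of all genes tested were higher and 22.6% lower. The median log2 change was 0.80 against 0.19 over all genes, and 3 of the 29 had a PBS mean under 0.5 FPKM and were kept through their BAC values. This list, too, was chosen with earlier results of these data known, so nothing is read from its count. Il1b had 50.2, 72.1, 131 and 80.7 FPKM in BAC corneas 1 to 4, against 0.193, 0.355, 0.241 and 0.378 FPKM in PBS corneas 1 to 4 (log2 change 5.95, SE 0.24, limma adjusted p = 6.74e-08). BAC 3 was highest and BAC 1 lowest, the order seen for Pf4 as well. Il1r1, the signalling receptor of interleukin 1, was at 17.1 ± 2.16 FPKM in BAC and 5.63 ± 0.504 FPKM in PBS corneas (log2 change 1.44, SE 0.10, limma adjusted p = 1.23e-06). Tnfrsf1b, a receptor of tumour necrosis factor found mainly on leukocytes and endothelium, was at 17.4 ± 2.94 FPKM in BAC and 0.315 ± 0.153 FPKM in PBS corneas (log2 change 3.80, limma adjusted p = 3.07e-08). Nfkbie, an inhibitor of NF-kB that NF-kB itself induces, was at 6.88 ± 0.753 FPKM in BAC and 0.527 ± 0.249 FPKM in PBS corneas (log2 change 2.38, limma adjusted p = 3.16e-07).

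Several inducers were not higher. Tnf had 2.33 to 3.67 FPKM in BAC corneas, against 6.65, 5.57, 4.82 and 0.762 FPKM in PBS corneas 1 to 4, and was not called (log2 change -0.22, limma adjusted p = 0.654). Without PBS 4 its log2 change was -0.70 (limma adjusted p = 0.00242). The NF-kB subunit genes Rela (log2 change 0.08, limma adjusted p = 0.254) and Rel (log2 change -0.01, limma adjusted p = 0.942) were not called. The subunit genes Nfkb1 (log2 change 0.47, limma adjusted p = 0.00101), Nfkb2 (1.13, 1.97e-05) and Relb (1.07, 9.47e-06) were called higher. The interleukin 17 receptor chain gene Il17rc was at 11.4 ± 1.18 FPKM in BAC and 17.3 ± 1.22 FPKM in PBS corneas (log2 change -0.56, limma adjusted p = 0.000255), while its partner chain Il17ra was at 5.77 ± 0.935 FPKM in BAC and 1.86 ± 0.18 FPKM in PBS corneas (log2 change 1.23, limma adjusted p = 5.83e-06). The other 2 that fell were Nfkbiz (log2 change -0.52, limma adjusted p = 0.0035) and Il1a (log2 change -0.52, limma adjusted p = 0.048). The groups overlapped for Il1a, and its call was lost under 9 of the alternatives, with an adjusted p of up to 0.121 by limma.

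Genes of a list of those that cut, shed or hold CXC chemokines were called in both directions. Of 28 such genes 25 were tested, of which 20 rose, 3 fell and 2 were not called in limma, where 45.1% of all genes tested were higher and 22.6% lower. The median log2 change was 1.505 against 0.19 over all genes, and 5 of the 25 had a PBS mean under 0.5 FPKM, Mmp9 among them, and were kept through their BAC values. The list was chosen with earlier results of these data known, so nothing is read from that count. Mmp9, a gelatinase that trims CXC chemokines, had 26.1 to 49.4 FPKM in BAC corneas and was listed at 0 in PBS corneas 1 to 3, with 0.0808 FPKM in PBS 4 (log2 change 5.12, limma adjusted p = 2.54e-08). Adam10, the sheddase of Cxcl16, was at 52.3 ± 3.95 FPKM in BAC and 22.3 ± 7.02 FPKM in PBS corneas (log2 change 1.25, limma adjusted p = 0.000862). Adam17, another sheddase, had a log2 change of 0.19 (limma adjusted p = 0.0406), was not called under 8 other alternatives, and turned in direction under median-of-ratios scaling.

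Of the heparan sulfate carriers in the list, Sdc1 and Sdc4 were called lower, and Sdc2, Sdc3, Gpc1, Gpc4 and Hspg2 were called higher. Sdc1 was at 130 ± 13.5 FPKM in BAC and 331 ± 19.5 FPKM in PBS corneas (log2 change -1.35, limma adjusted p = 7.7e-07). Sdc4 was at 93.1 ± 6.76 FPKM in BAC and 226 ± 10.3 FPKM in PBS corneas (log2 change -1.27, limma adjusted p = 2.76e-07). These 2 syndecans fell, whereas Sdc3 was at 12.5 ± 0.769 FPKM in BAC and 1.91 ± 0.397 FPKM in PBS corneas (log2 change 2.22, limma adjusted p = 1.96e-07). Srgn, the serglycin gene of the same list, was at 72.9 ± 34.3 FPKM in BAC and 0.558 ± 0.274 FPKM in PBS corneas (log2 change 5.48, limma adjusted p = 2.22e-07). Sulf2, a sulfatase that edits heparan sulfate, was at 19.5 ± 2.43 FPKM in BAC and 0.445 ± 0.161 FPKM in PBS corneas (log2 change 3.83, limma adjusted p = 1.63e-08).

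Markers of several cell types differed between the groups beside the chemokines, and in bulk samples fewer cells of a type and less RNA per cell cannot be told apart. Of 14 neutrophil markers 10 were listed and all 10 were called higher, where 45.1% of all genes tested were higher. A PBS mean under 0.5 FPKM was found for 8 of these 10, which were kept by the filter through their BAC values, so nothing is read from that count. Their summed FPKM was 465 to 1369 in BAC and 4.56 to 29.3 in PBS libraries. Fpr1, Fpr2, Trem1 and Retnlg were listed at 0 in every PBS library. The 11 macrophage and monocyte markers and the 7 vessel endothelium markers were all called higher, where 45.1% of all genes tested were higher. Of the macrophage and monocyte markers 3 had a PBS mean under 0.5 FPKM and were kept through their BAC values. Sums for macrophages and monocytes were 843 to 1088 FPKM in BAC and 29.2 to 42.6 FPKM in PBS libraries. For vessel endothelium the sums were 113 to 148 FPKM in BAC and 6.42 to 14.3 FPKM in PBS libraries. Of 10 keratocyte and fibroblast markers 8 were higher and 1, Kera, was lower, where 45.1% of all genes tested were higher and 22.6% lower. Their sums were 2207 to 2833 FPKM in BAC and 533 to 1074 FPKM in PBS libraries. Of 8 markers of corneal and surface epithelium 5 were lower and 2 higher, beside the same shares of 22.6% lower and 45.1% higher. The epithelial sums were 5075 to 6285 FPKM in BAC and 22789 to 24252 FPKM in PBS libraries. Krt12, the keratin that defines corneal epithelium, averaged 10.5 FPKM in BAC and 10325 FPKM in PBS corneas. Of 6 lymphocyte markers 4 were listed, and their sums were 3.38 to 5.27 FPKM in BAC and 0 to 0.0723 FPKM in PBS libraries. The part of these cell types in the chemokine differences was not tested.

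**Figure D5:**
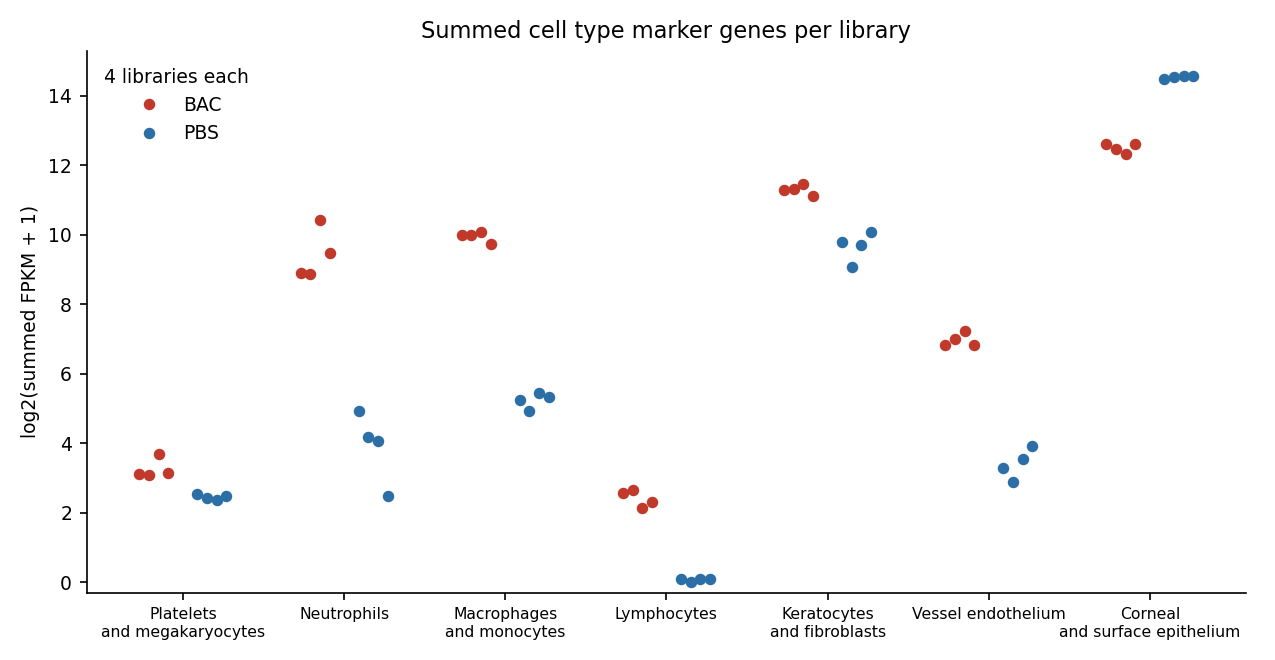
Each point is 1 library, on the vertical axis log2(summed FPKM + 1) over the listed markers of a cell type, with BAC (red) left of PBS (blue). Neutrophil, macrophage, endothelial and lymphocyte markers are apart and higher in BAC corneas, epithelial markers are lower, and platelet markers differ least, with 7.46 to 11.8 FPKM in BAC and 4.13 to 4.80 FPKM in PBS libraries.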

How the data were processed

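The authors deposited FPKM per gene and per transcript for 8 corneal RNA-seq libraries, made from Trizol RNA with a stranded kit, per the labels' protocols. The submitters' processing notes name HISAT2 2.1.0, StringTie 1.3.3 and GRCm38 without saying what each was used for, and how reads that align to several genes were divided is not given in the sources used here. No counts could be recovered from the values, so depth is unknown and no counting intervals are given; an exact 0 is described as listed at 0. Groups and replicate numbers came from the sample titles. Genes with a mean of at least 0.5 FPKM were tested on log2(FPKM + 1) with limma 3.58.1 in R 4.3.3, with group alone in the model, a prior variance that follows the mean level, a two-sided test and Benjamini-Hochberg adjustment over the 12967 genes kept, at a threshold of 0.05. Besides the 9 chemokine genes, the genes named were the called genes of a list, of which up to 4, lowest in adjusted p, are given in full, and the 3 genes nearest in profile to each of 5 chemokine genes. Tnf, Rela, Rel, Ackr3, Ereg and Mthfd2l, which were not called, were named after their values were seen. The 9 genes and all lists were chosen with earlier results of these data known. Promoters came from RefSeq tables of GRCm38.p6. Alternatives were another pseudocount, other filters, other scalings, a robust prior, a replicate block, each sample left out and, chosen after seeing the data, changes from coding transcripts. Figures used matplotlib 3.10.9.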

Additional observations from a re-analysis of the deposited data

Results flagged for a closer look

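Of 64 groups of 4 libraries examined among the chemokine genes, their transcripts and the genes named, 9 held a library far from the other 3 by Dixon's test, where chance flags about 1 in 20 groups. Cxcl5 had 183 FPKM in BAC 3 against 90.9 to 96.6 FPKM in the other BAC libraries. Cxcl16 had 20.2 FPKM in BAC 4 against 23.6 to 23.9 FPKM in the other BAC libraries. Areg had 19.9 FPKM in BAC 1, where the other BAC libraries held 14.0 to 15.0 FPKM.

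At transcript level, the Cxcl12 transcript of 1878 bases had 51.0 FPKM in BAC 1 and at most 0.154 FPKM in the other BAC libraries, and 2.71 FPKM in PBS 4 and at most 0.124 FPKM in the other PBS libraries. The Cxcl14 transcript of 1467 bases had 12.6 FPKM in BAC 4 and at most 0.492 FPKM in the other BAC libraries. In PBS corneas, 3 genes nearly absent from the group had a value in a single library: Mmp9 with 0.0808 FPKM and Cxcr2 with 0.127 FPKM, both in PBS 4 with the others listed at 0, where any value above 0 would stand apart, and Cxcl17 with 0.256 FPKM in PBS 1, where the others held at most 0.0331 FPKM. No cause was tested for any of these values.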

How the results depend on the processing

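All 9 chemokine genes stayed higher in BAC corneas under each alternative run; leaving out 1 library, Ppbp ranged from 9.25 to 9.70, Cxcl12 from 2.79 to 3.23 and Cxcl14 from 1.27 to 1.65 on the log2 scale. With a pseudocount of 0.1 the log2 changes were 3.69 for Cxcl1, 5.40 for Cxcl2, 7.42 for Cxcl3, 7.04 for Cxcl5, 11.05 for Ppbp, 6.78 for Pf4 and 3.86 for Cxcl12, and the chromosome 5 genes exceeded the other 3 by 4.34 on average, against 3.27 as reported; a smaller constant raises the change of genes near 0 by construction. From coding transcripts, an alternative chosen after seeing the data, Cxcl3 changed by 5.93. A filter at 2 FPKM left 3 of the other CXC genes called higher, since fewer were tested. Quantile normalization gave 4967 lower genes among all tested, 5 lower inducers and 4 lower neighbours. Leaving out 1 library, the lower inducers numbered 2 to 6, the 6 without PBS 4. Reversed were Adam17 (-0.0212, median-of-ratios), Ankrd17 (-0.13, quantile) and Mthfd2l (-0.38, quantile); the cause was not tested. The median of all genes was 0.19 as deposited, 0.01 with median-of-ratios scaling and -0.08 with quantile normalization.

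The labels give no pairing for the replicate numbers, and the samples were not treated as paired: r of same-numbered deviations was 0.109, 0.121 and 0.114 for numbers 2, 3 and 4, whose BAC samples correlated best with their own number, and 0.0527 for number 1, where BAC 1 correlated best with PBS 2. With a replicate block 8519 genes were called, and Il1a (adjusted p = 0.0554), Adam17 (0.0713) and Ankrd17 (0.0785) were not among them, while Zfp36 was (0.0141), all by limma.

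Unknown depth limits every low value: PBS levels under 1 FPKM in 5 of the 9 chemokine genes carry no counting error here.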
